A study of Mus musculus with 4 samples.

Results

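The renin-angiotensin system was followed across the deposited promoter counts of histone H3 acetylation in the mouse left ventricle. The 6 genes were taken by symbol from the table of raw counts per RefSeq promoter: Agt, Ace, Agtr1a, Agtr1b, Agtr2 and Nr3c2, out of 22835 genes kept. All 6 had a mean count of at least 10 and were kept, and of the 3 RefSeq IDs of Ace the most counted one was used. Agt encodes angiotensinogen, the secreted precursor that renin trims to angiotensin I. Ace encodes the converting enzyme that makes angiotensin II, and Agtr1a and Agtr1b encode the mouse pair of type 1 receptors, which carry the pressor and growth signals of that peptide. Agtr2 encodes the type 2 receptor, often described as a counterweight, and Nr3c2 the mineralocorticoid receptor, the nuclear receptor through which aldosterone acts. In the heart the pathway is known as a driver of hypertrophy and fibrosis under pressure load, and blockers of it are standard drugs in heart failure.

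Chromatin was immunoprecipitated with an antibody against acetylated histone H3 from left ventricles of male C57BL6 mice, 10 to 12 weeks old. Mice had a transverse aortic constriction (TAC), which loads the ventricle with pressure, or a sham operation. For 4 weeks all of them were injected 2 times daily, either with DMSO alone (Veh) or with trichostatin A dissolved in it (TSA, an inhibitor of histone deacetylases), at a daily dose of 0.6 mg/kg. Each of the 4 combinations of operation and injection has 1 library, so no value has a replicate, and the number of mice behind a library is not given in the sources used here. An earlier deposit is cited by the labels of the sham pair and not by those of the TAC pair, so surgery and any difference between these deposits cannot be told apart. Whole ventricle was used, so more cells of a type and more acetylation per cell cannot be told apart either.

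The libraries held 6842296 (TAC TSA) to 9905553 (Sham TSA) promoter counts. Promoters of olfactory and vomeronasal receptors, which are silent in heart, served as background. Over 1274 such genes the median scaled level was 2.51 CPM (the usual count unit, relative to the scaled library size) for Sham Veh, 2.60 for Sham TSA, 3.15 for TAC Veh and 4.37 for TAC TSA, so the background was highest in the TAC TSA library. The 10 cardiomyocyte markers lay 16.4 to 45.6 times the receptor median in Sham Veh. The median of all genes was 36.4 CPM in that library. The highest adipocyte marker there lay 55.1 times the receptor median and the highest hepatocyte marker 12.5 times. These levels are above background and do not by themselves identify the tissue. A promoter was counted as apart between 2 libraries if these differed 1.5-fold or more and the exact 95% interval of the ratio, for counting error only, left out 1. Apart from these intervals the comparisons of single libraries carry no test. Of all promoters, 440 were apart and higher and 133 lower in TAC Veh over Sham Veh (196 and 250 with loess scaling on count, 119 and 860 with scaling on the receptor promoters). The numbers were 133 and 133 in Sham TSA over Sham Veh (109 and 171 with receptor-promoter scaling). They were 927 and 78 in TAC TSA over TAC Veh (311 and 252, and 100 and 3259) and 1643 and 47 in TAC TSA over Sham TSA (188 and 308, and 102 and 11895). With receptor-promoter scaling the median log2 ratio of all genes was -0.24, -0.02, -0.38 and -0.61 in these 4 comparisons.

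The sequence before the start of transcription is shown for Agt, for both starts that RefSeq lists for Ace, and for Nr3c2, because these promoters span the CpG-poor and CpG-rich ends of the set and the counts follow below. They are the 250 bases before each start, 5′ to 3′, from RefSeq on the GRCm38.p6 build, whereas the counts were made on mm9, so these positions are not those of the counted windows. Sequences were found for 5 of the 6 genes. Capitals mark matches, on either strand, to 4 promoter motifs. They are the TATA box in the form TATAAA, the box of the nuclear factor NF-Y written CCAAT, the GC box bound by Sp1 written GGGCGG, and the half-site of steroid hormone response elements written AGAACA.
Agt, chr8:124569707-124569956, minus strand: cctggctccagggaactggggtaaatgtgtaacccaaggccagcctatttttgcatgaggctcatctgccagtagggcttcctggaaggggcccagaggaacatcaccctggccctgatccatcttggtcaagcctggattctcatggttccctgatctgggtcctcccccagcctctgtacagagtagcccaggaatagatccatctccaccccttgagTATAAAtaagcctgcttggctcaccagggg
Ace, first start, chr11:105967698-105967947, plus strand: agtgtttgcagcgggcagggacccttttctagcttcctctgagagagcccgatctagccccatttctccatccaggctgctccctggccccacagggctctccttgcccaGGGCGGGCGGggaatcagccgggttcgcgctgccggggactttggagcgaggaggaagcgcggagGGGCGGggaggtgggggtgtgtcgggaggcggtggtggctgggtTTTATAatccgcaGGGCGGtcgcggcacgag
Ace, second start, chr11:105974939-105975188, plus strand: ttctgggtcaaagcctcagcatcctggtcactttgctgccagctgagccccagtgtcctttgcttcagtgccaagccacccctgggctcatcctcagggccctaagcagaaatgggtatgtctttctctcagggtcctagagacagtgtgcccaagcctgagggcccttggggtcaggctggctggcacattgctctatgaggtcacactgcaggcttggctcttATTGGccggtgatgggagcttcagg
Nr3c2, chr8:76902080-76902329, plus strand: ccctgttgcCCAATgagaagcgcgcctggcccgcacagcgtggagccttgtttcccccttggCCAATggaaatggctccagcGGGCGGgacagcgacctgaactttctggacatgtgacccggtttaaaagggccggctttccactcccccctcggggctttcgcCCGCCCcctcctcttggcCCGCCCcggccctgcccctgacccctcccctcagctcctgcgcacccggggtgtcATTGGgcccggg

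The window of Agt held no CpG dinucleotide, and a TATAAA match began 30 bases before the start. The first Ace window held 19 CpG and 4 GC boxes, of which 2 overlap each other, and a TATAAA match on the minus strand began 31 bases before the start. The second Ace window held 1 CpG and a CCAAT match on the minus strand. Nr3c2 held 17 CpG, 3 GC boxes and 3 CCAAT matches. Agtr1b and Agtr2, whose sequences are not shown, held 5 and 3 CpG; Agtr1b had a TATAAA match 31 bases before the start, and each had 1 CCAAT match on the minus strand. None of the 6 windows matched AGAACA. Among 32851 RefSeq windows of the same length, 12.4% held the TATA motif, 33.8% the NF-Y motif, 32.7% the GC box and 16.1% the hormone half-site, and the median window had 6 CpG. A match describes letters and not binding.

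Acetylation counts differed more between the 6 genes than between libraries. The counting window is not given in the sources used here, so the order between genes holds if all windows have 1 length. Nr3c2 had 693 counts in the vehicle and 749 in the TSA library of the sham pair, and 574 and 472 in those of the TAC pair, the order in which all sets of 4 values are given here. On the scaled level it lay at 102, 108, 90.3 and 93.7 CPM, above 88.6% to 94.1% of all genes. The converting enzyme gene Ace had 444, 437, 479 and 293 counts, or 65.5, 63.1, 75.4 and 58.2 CPM. It was above 68.5% to 79.5% of genes and 13.3 to 26.1 times the receptor median.

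Agtr1a and Agt were of middle height. Agtr1a had 188, 263, 157 and 158 counts, which is 27.7, 38.0, 24.7 and 31.4 CPM. On this scale both TSA libraries were above both vehicle libraries. Relative to the receptor median of the same library Agtr1a stood at 11.1, 14.6, 7.85 and 7.18 times, lowest in TAC TSA. Agt had 168, 143, 151 and 163 counts, or 24.8, 20.6, 23.8 and 32.4 CPM, and on this scale the TAC TSA library stood above the rest. Relative to the receptor median Agt stood at 9.88, 7.94, 7.55 and 7.41 times, also lowest in TAC TSA. Both genes lay above at least 99.8% of receptor promoters in every library.

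The other receptor genes were near the silent background. Agtr1b had 43, 37, 35 and 20 counts. That is 2.53, 2.06, 1.75 and 0.91 times the receptor median of the same library, above the median in every library except TAC TSA, where it was below. Among receptor promoters it was at the percentiles 91.1, 87.9, 85.2 and 40.0. Agtr2 had 20, 20, 30 and 17 counts, 1.18, 1.11, 1.5 and 0.77 times the receptor median. Acetylation of Agtr2 above background was therefore not detectable at this depth: it lay between the percentiles 23.9 and 78.8 of the receptor promoters. The 2 type 1 receptor genes are close paralogs, and how reads that fit both were counted has no statement in the labels or notes.

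The order by mean scaled count was Nr3c2, Ace, Agtr1a, Agt, Agtr1b and Agtr2. Nr3c2 exceeded Ace in all 4 libraries, by 1.20-fold in TAC Veh (95% interval 1.06 to 1.36) to 1.71-fold in Sham TSA (1.52 to 1.93). Agtr1a and Agt could not be ordered in 3 libraries, where the interval of their ratio held 1 (Sham Veh 1.12, 0.90 to 1.39; TAC Veh 1.04, 0.83 to 1.31; TAC TSA 0.97, 0.77 to 1.21). In Sham TSA Agtr1a was 1.84-fold higher than Agt (1.49 to 2.27). Agt exceeded Agtr1b by 3.86-fold to 8.15-fold. Agtr1b and Agtr2 could be ordered in the sham libraries (2.15-fold, 1.24 to 3.86, and 1.85-fold, 1.05 to 3.36) and not in the TAC libraries. Of the 2 genes with the highest counts, Nr3c2 has a CpG-rich window, and Ace has a CpG-rich first and a CpG-poor second one. Which of these the counts of Ace belong to is not given, and for Agtr1a no sequence was found. Over all genes with 1 RefSeq window, the median count in Sham Veh was 443 where the ratio of observed to expected CpG was at least 0.6 (6698 genes) and 86 where it was lower (7693 genes). Agt, with no CpG, had 168 counts in that library.

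**Figure D1:**
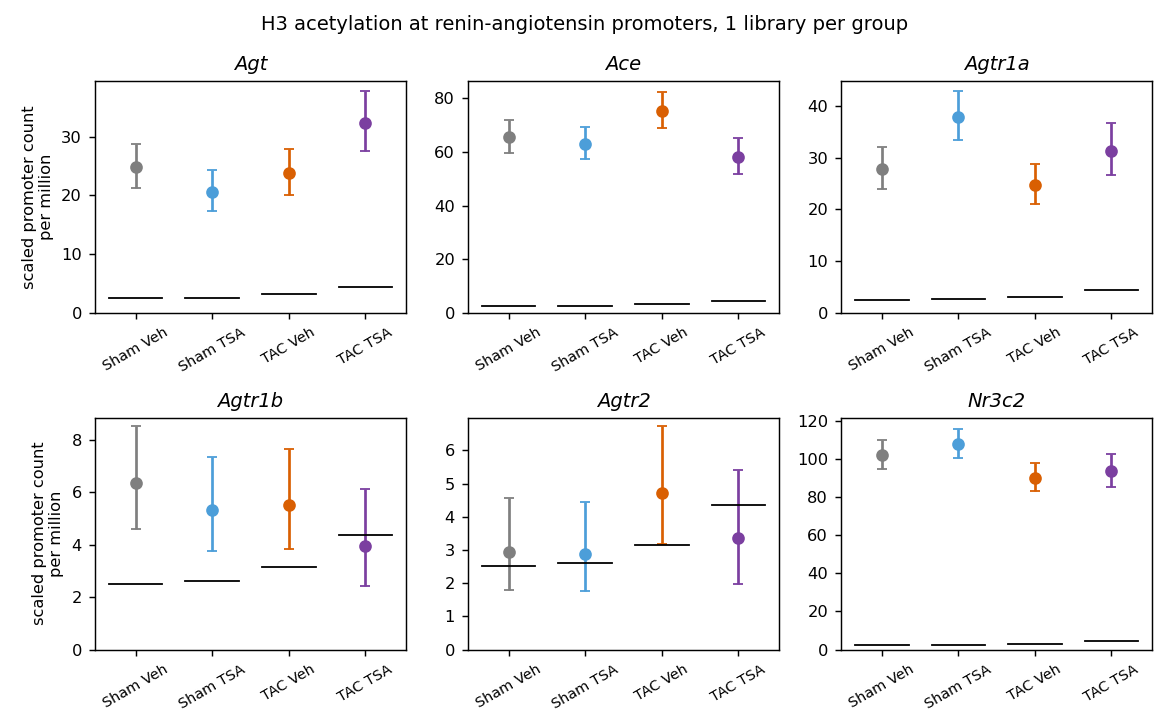
Scaled promoter levels in CPM (vertical axes, from 0) of the 6 genes in the 4 libraries; bars are exact 95% Poisson intervals and the short black lines give the receptor-promoter median of each library. Nr3c2, Ace, Agtr1a and Agt lie far above the black lines, while Agtr2 and, in TAC TSA, Agtr1b (0.91 times the median) lie close to them.

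**Figure D2:**
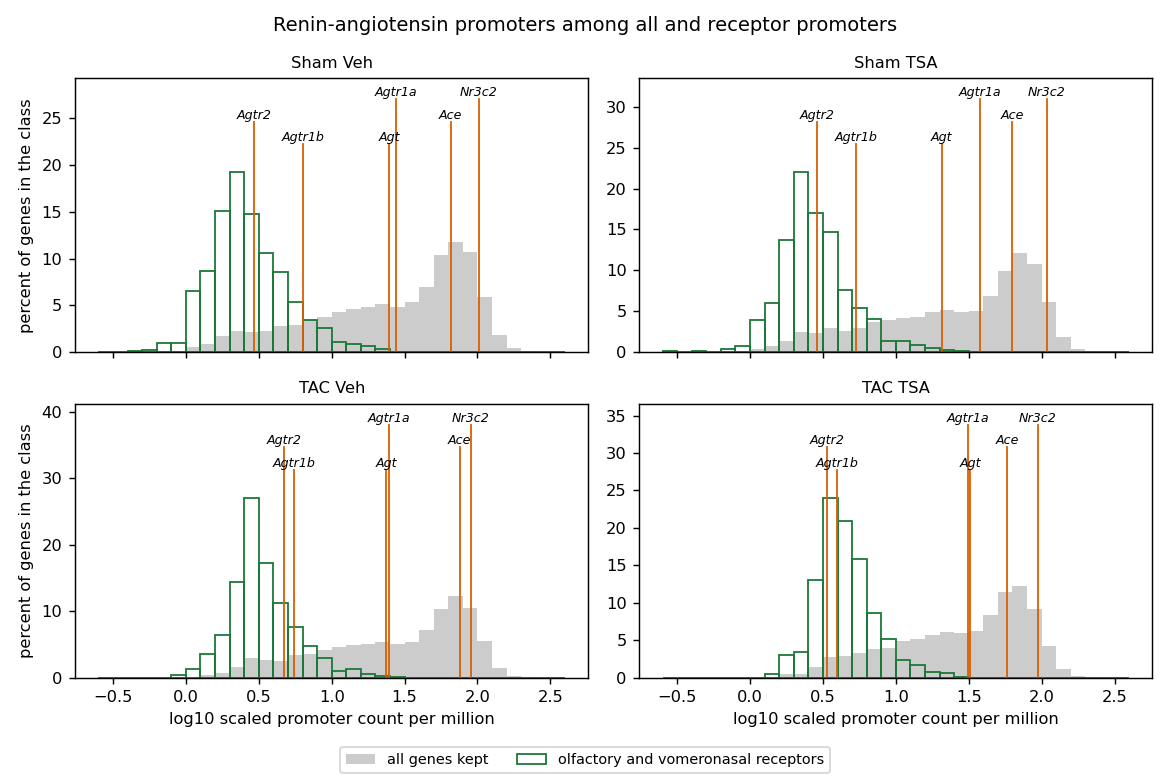
Distribution of log10 scaled promoter levels in CPM in each library for all genes kept (grey) and for olfactory and vomeronasal receptor genes (green outline), as percent of each class, with orange lines at the 6 genes. Nr3c2 and Ace fall in the main peak of active promoters, Agtr1a and Agt on its lower shoulder, and Agtr2 within the receptor distribution.

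What pressure overload does to these promoters without the drug was read from TAC Veh over Sham Veh. None of the 6 was apart, where 1.93% of all promoters were apart and higher and 0.582% lower. The median log2 ratio of the 6 was -0.11, against -0.00055 for all genes. Ace was 1.15-fold higher (log2 ratio 0.20, 95% interval 0.01 to 0.39) and Nr3c2 1.13-fold lower (-0.18, -0.34 to -0.02). With receptor-promoter scaling Ace was at -0.04, so the sign of its difference depends on the scaling. The interval of Nr3c2 held 0 with loess scaling (-0.14, -0.31 to 0.02) and with total-count scaling (-0.16, -0.32 to 0.01). With receptor-promoter scaling it did not (-0.42, -0.58 to -0.26). Agt (-0.06, -0.39 to 0.26), Agtr1a (-0.17, -0.48 to 0.15) and Agtr1b (-0.20, -0.89 to 0.47) had intervals that held 0. Agtr2 had the highest ratio (0.68, -0.19 to 1.57), on 30 counts against 20, and its interval also held 0.

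Sham TSA over Sham Veh asked what the inhibitor does in the unloaded ventricle. Again 0 of 6 promoters were apart, where 0.582% of all promoters were higher and 0.582% lower. The type 1 receptor gene Agtr1a was 1.37-fold higher (0.45, 0.18 to 0.73), above 96.3% of all genes, and held this value between 0.42 and 0.45 with the other scalings. Agt was 1.20-fold lower (-0.26, -0.60 to 0.07). Ace (-0.05, -0.25 to 0.14), Agtr1b (-0.25, -0.92 to 0.42), Agtr2 (-0.03, -1.0 to 0.94) and Nr3c2 (0.08, -0.07 to 0.23) had intervals around 0.

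TAC TSA over TAC Veh asked the same question under pressure overload. None of the 6 reached 1.5-fold, where 4.06% of all promoters were apart and higher and 0.342% lower. Agt was 1.36-fold higher (0.45, 0.12 to 0.77) and Agtr1a 1.27-fold higher (0.34, 0.02 to 0.67). Ace was 1.30-fold lower (-0.37, -0.59 to -0.16), at percentile 3.49 of all genes. Nr3c2 was level (0.05, -0.13 to 0.23). Agtr1b (-0.47, -1.34 to 0.36) and Agtr2 (-0.48, -1.43 to 0.42) were low on 20 and 17 counts. With receptor-promoter scaling Agt was at 0.06 and Agtr1a at -0.04. Ace (-0.76) and Agtr1b (-0.86) were then apart and lower, as were 3259 of all 22835 promoters. With loess scaling the interval of Agtr1a (0.31, -0.02 to 0.64) held 0.

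TAC TSA over Sham TSA compared overload between treated ventricles. Here 1 of the 6, Agt, was apart and higher, where 7.2% of all promoters were higher and 0.206% lower. Agt was 1.57-fold higher (0.65, 0.32 to 0.98), 163 counts in the smaller TAC TSA library against 143 in Sham TSA. The promoters that made up the 7.2% had mostly few counts: with promoters cut into 10 classes of equal number by mean count, 26.9% of the lowest class were apart and higher, with a median ratio of 0.68. Agt is in class 5, where 0.219% of 2284 promoters were apart and higher and the median was 0.01. In class 4 these values were 3.11% and 0.14, and in class 6 0.0438% and -0.07. Agt stayed apart with loess scaling (0.59, 0.26 to 0.93) and was at 0.06 (-0.28 to 0.39) with receptor-promoter scaling, which ends the call. Nr3c2 was 1.15-fold lower (-0.21, -0.38 to -0.04). It is in class 10, where the median was -0.13, and with loess scaling its interval held 0 (-0.09, -0.25 to 0.08). With receptor-promoter scaling Nr3c2 (-0.80), Agtr1a (-0.87), Ace (-0.71) and Agtr1b (-1.02) were apart and lower, as were 11895 of all promoters. Agtr1a (-0.28, -0.57 to 0.01), Ace (-0.12, -0.34 to 0.10), Agtr1b (-0.43, -1.29 to 0.39) and Agtr2 (0.23, -0.80 to 1.23) had intervals that held 0. Agtr1b, whose neighbours in count were higher in TAC TSA (median 0.46 in class 2), was lower and apart with loess scaling (-0.99, -1.86 to -0.17), on 20 counts against 37.

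**Figure D3:**
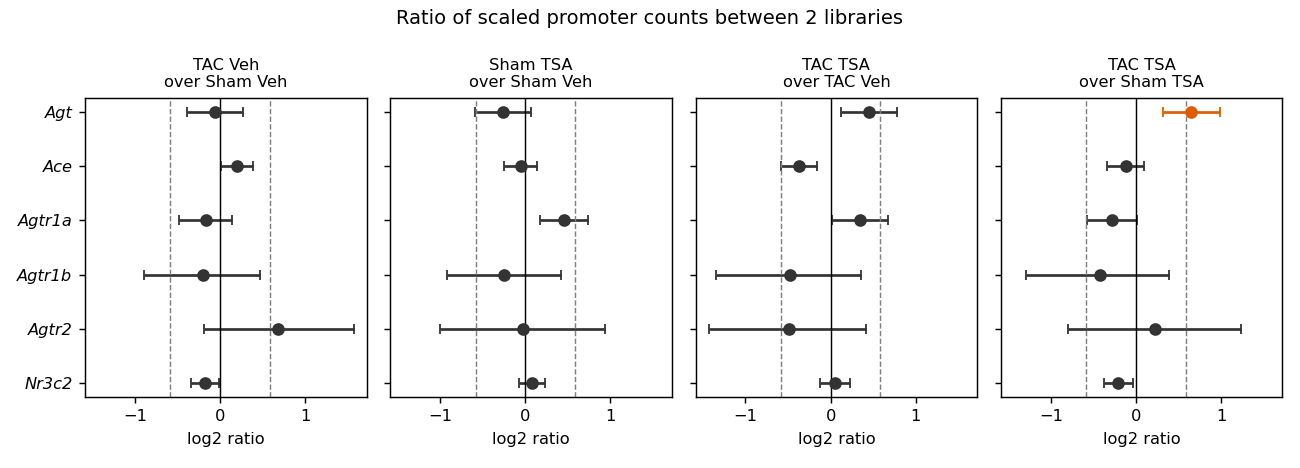
Log2 ratio of scaled promoter counts (horizontal axes) of the 6 genes in the 4 pairs of libraries, with exact 95% intervals for counting error; dashed lines mark 1.5-fold. The orange point, Agt at 0.65 in TAC TSA over Sham TSA, is the one past 1.5-fold with an interval that excludes 0, while Agtr2 at 0.68 in TAC Veh over Sham Veh has an interval that includes it.

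The drug ratio under overload divided by the drug ratio in sham gives the interaction of surgery and drug, with no replicate spread behind it. For Agt it was 0.71 on the log2 scale (0.26 to 1.16), since the TSA library was the lower one in sham and the higher one after TAC. Over all genes 4.44% had an interaction ratio that was at least 1.5-fold with an interval excluding 1 and positive, and 1.27% a negative one. With receptor-promoter scaling the ratio of Agt was 0.36 (-0.10 to 0.81), whose interval held 0, and with loess scaling, an alternative added after seeing the data, 0.66 (0.21 to 1.11). Ace had -0.32 (-0.60 to -0.04), short of 1.5-fold, and -0.67 (-0.96 to -0.39), past it, with receptor-promoter scaling. Agtr1a (-0.11, -0.53 to 0.31), Agtr1b (-0.22, -1.24 to 0.79), Agtr2 (-0.45, -1.69 to 0.79) and Nr3c2 (-0.03, -0.26 to 0.20) had intervals that held 0. With receptor-promoter scaling those of Agtr1a (-0.46, -0.88 to -0.04) and Nr3c2 (-0.38, -0.61 to -0.15) did not. With TMM, the scaling used unless another is named, Agtr1a was the one of the 6 genes that was higher with TSA in both surgeries with intervals above 0. After TAC this did not hold with loess scaling (0.31, -0.02 to 0.64) or with receptor-promoter scaling (-0.04).

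All 4 libraries were then fitted with 1 term for surgery and 1 for the drug by the quasi-likelihood test of edgeR, with p-values adjusted over all genes by Benjamini and Hochberg. The fit has 1 residual degree of freedom, which is the interaction of surgery and drug. The spread behind its p-values is thus departure from additivity, and not variation between mice. Over all genes it called 0.0131% higher and 0.0219% lower for surgery, and 0.206% higher and 0.00876% lower for the drug. None of the 6 genes was called for either factor. Agtr1a had a log2 fold change of 0.40 for the drug (unadjusted p = 0.0067, adjusted p = 0.63 in edgeR), with TSA above vehicle in both surgeries. Nr3c2 had -0.19 for surgery (unadjusted p = 0.0354, adjusted p = 0.50 in edgeR), with TAC below sham with either injection. These were the 2 values with an unadjusted p under 0.05, 1 for each factor. Limma-voom likewise gave 1 for each factor and none after adjustment, and DESeq2 gave 0 for both, adjusted or not. Ace was at -0.21 for the drug (adjusted p = 1.00 in edgeR) and Agt at 0.29 for surgery (adjusted p = 0.58 in edgeR).

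The Ace gene is known to be read from a pair of promoters, a somatic one and an inner one used in the germ line of the testis. The RefSeq IDs NM_001281819 and NM_207624 had identical counts in every library, and NM_009598 had its own. The table of starts lists 2 for Ace, 7241 bp apart on GRCm38.p6, and which ID belongs to which start is not given in the sources used here. NM_009598 had 172, 147, 153 and 109 counts. The shared promoter exceeded it by 2.58-fold (2.16 to 3.10), 2.97-fold (2.46 to 3.61), 3.13-fold (2.60 to 3.78) and 2.69-fold (2.15 to 3.38). The lower promoter was still 10.1, 8.17, 7.65 and 4.95 times the receptor median. Its log2 ratio was -0.08 (-0.40 to 0.25) in TAC Veh over Sham Veh and -0.15 (-0.52 to 0.21) in TAC TSA over TAC Veh, so the differences given for Ace rest on the shared promoter, and whether the 2 promoters differ in this was not tested.

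**Figure D4:**
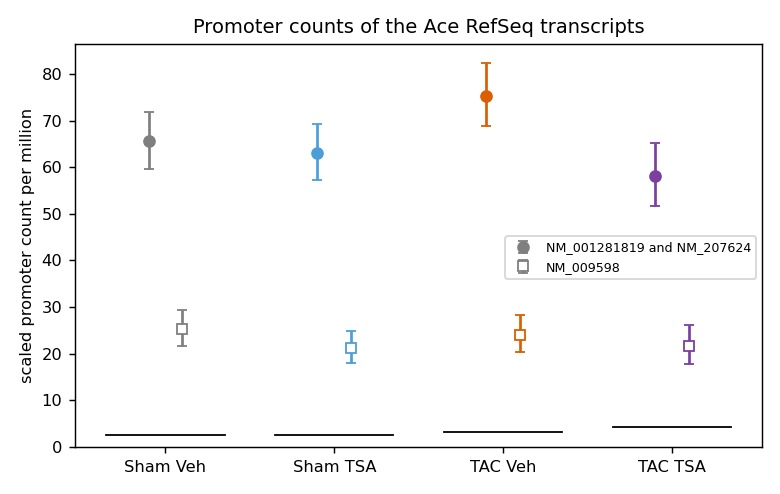
Scaled promoter levels in CPM of the RefSeq transcripts of Ace in the 4 libraries: filled circles for the 2 IDs with identical counts, open squares for NM_009598, with exact 95% Poisson intervals and the receptor-promoter median as black lines. The circles are 2.58 to 3.13 times the squares, and the circle of TAC Veh is the highest.

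Further genes of the pathway were read from 4 lists. These were chosen with earlier results of these data known, so their shares describe and do not test. Of the 63 genes, 3 were apart and higher and 0 lower between TAC Veh and Sham Veh. The counts were 0 and 1 for Sham TSA over Sham Veh, 1 and 2 for TAC TSA over TAC Veh, and 5 and 1 for TAC TSA over Sham TSA. Of all promoters 0.582% were higher and 0.582% lower in Sham TSA over Sham Veh. The shares were 4.06% and 0.342% in TAC TSA over TAC Veh, and 7.2% and 0.206% in TAC TSA over Sham TSA. The 5 higher are 7.94% of the 63, beside 7.2% of all promoters, and the 3 higher after TAC with vehicle are 4.76%, beside 1.93%. With loess scaling TAC TSA over Sham TSA had 0 higher and 1 lower, and with receptor-promoter scaling 0 and 38. TAC TSA over TAC Veh had 0 and 3, and 0 and 14, under the same scalings, and TAC Veh over Sham Veh 3 and 0, and 0 and 1. Among all 22835 promoters, 308 were lower in TAC TSA over Sham TSA with loess scaling and 11895 with receptor-promoter scaling. In TAC TSA over TAC Veh these were 252 and 3259. In TAC Veh over Sham Veh they were 250 and 860, with 196 and 119 higher. None of the 63 was called by the additive edgeR fit. Of the 15 enzymes that form or cleave angiotensins, the median under TAC Veh over Sham Veh was -0.03, between neprilysin, Mme (-0.33), and mast cell chymase, Cma1 (0.19). It was 0.07 in TAC TSA over TAC Veh, between Prcp (-0.30), which cleaves angiotensin II, and the mast cell protease Cpa3 (0.52). No enzyme was apart in either comparison. With receptor-promoter scaling 2 enzymes were lower in TAC TSA over TAC Veh, as were 3259 of all 22835 promoters. Cathepsin G, Ctsg, an enzyme of neutrophils that can form angiotensin II, had 62, 36, 51 and 51 counts. In sham its TSA library was the lower one (-0.82, -1.45 to -0.20) and with TSA the TAC library was higher (0.96, 0.32 to 1.62; 0.53 with loess scaling and then not apart). Both ratios rest on the single low count of the Sham TSA library. The renin gene Ren1 had 165, 148, 135 and 112 counts and was not apart in any of the 4 comparisons.

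Of 14 other receptors and receptor partners none was apart in any of the 4 comparisons, and their medians lay between -0.06 and -0.01. With receptor-promoter scaling 9 of the 14 were apart and lower in TAC TSA over Sham TSA (median -0.63, beside -0.61 for all genes), 2 in TAC TSA over TAC Veh and 1 in TAC Veh over Sham Veh. Of all 22835 promoters, 11895, 3259 and 860 were lower in these comparisons. Of the 14, the lowest in TAC Veh over Sham Veh was Rgs2 (-0.37), a brake on Gq signalling, and the highest Mrgprd (0.25). In TAC TSA over TAC Veh the range ran from the Gq subunit Gnaq (-0.36) to Mas1 (0.50), the receptor of a shorter, vasodilating angiotensin.

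In the 18 genes of steroid synthesis and mineralocorticoid response the medians lay between -0.03 and -0.01. Scnn1g (-0.27) and Scnn1b (0.40), subunits of the epithelial sodium channel, were the ends in TAC Veh over Sham Veh. Under TAC TSA over TAC Veh the highest was the steroid 21-hydroxylase Cyp21a1 (0.78, 0.15 to 1.41), which was apart and higher (0.51 with loess scaling and not apart). The adrenal genes Cyp11b2, the aldosterone synthase (0.93, 0.31 to 1.56), Cyp11b1 (0.61, 0.05 to 1.18) and Cyp21a1 (0.87, 0.25 to 1.5) were apart and higher in TAC TSA over Sham TSA. They had 39 to 65 counts in every library, and with loess scaling (0.52, 0.26 and 0.45) none of these was apart. Of all promoters 7.2% were apart and higher in this comparison. Among promoters of few counts the share was larger, 27.0% in class 2 and 14.5% in class 3 by mean count. With receptor-promoter scaling 12 of the 18 were lower there and 3 in TAC TSA over TAC Veh. Sgk1, a classical target of the mineralocorticoid receptor, was level in TAC Veh over Sham Veh (0.03).

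Of 16 genes known to respond to angiotensin II, 14 had ratios above 0 between TAC Veh and Sham Veh (median 0.28), where the median of all genes was -0.00055 (0.04 against -0.24 with receptor-promoter scaling). The matrix protein gene Postn (0.79, 0.45 to 1.13), the protease inhibitor gene Timp1 (0.72, 0.27 to 1.17) and the natriuretic peptide gene Nppb (0.63, 0.28 to 0.98) were apart and higher. With receptor-promoter scaling none of them was (0.55, 0.48 and 0.39). Cyba, a subunit of the NADPH oxidase, was lowest (-0.04). In TAC TSA over TAC Veh the median was -0.22 (-0.60 with receptor-promoter scaling, where that of all genes was -0.38). Postn (-0.85, -1.24 to -0.48) and Timp1 (-0.78, -1.29 to -0.28) were apart and lower, 2 of 16 where 0.342% of all promoters were lower, and Nppb was highest (0.37). With loess scaling 3 of the 16 were lower, and with receptor-promoter scaling 7, beside 252 and 3259 of all 22835 promoters. In TAC TSA over Sham TSA the natriuretic peptide gene Nppa (0.73, 0.31 to 1.16; 0.54 with loess scaling and not apart) was higher and the oxidase gene Cybb (-1.16, -2.07 to -0.32) lower, on 16 counts against 49. The list includes matrix and leukocyte genes such as Postn, Col1a1 and Cybb, and with TMM the medians of marker promoters of those cells differed in the same direction. The median of the fibroblast markers was 0.20 in TAC Veh over Sham Veh and -0.17 in TAC TSA over TAC Veh, and that of the leukocyte markers 0.30 and -0.42. Of 12 fibroblast markers 10 were above 0 in the first comparison and 3 in the second. With receptor-promoter scaling the fibroblast medians were -0.04 and -0.55 and the leukocyte medians 0.06 and -0.80, beside -0.24 and -0.38 for all genes. The part of these cells in the ratios of the list was not tested. The list was chosen with earlier results of these data known, so its shares beside those of all promoters are no test. Comparisons that share a library are not independent of each other.

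**Figure D5:**
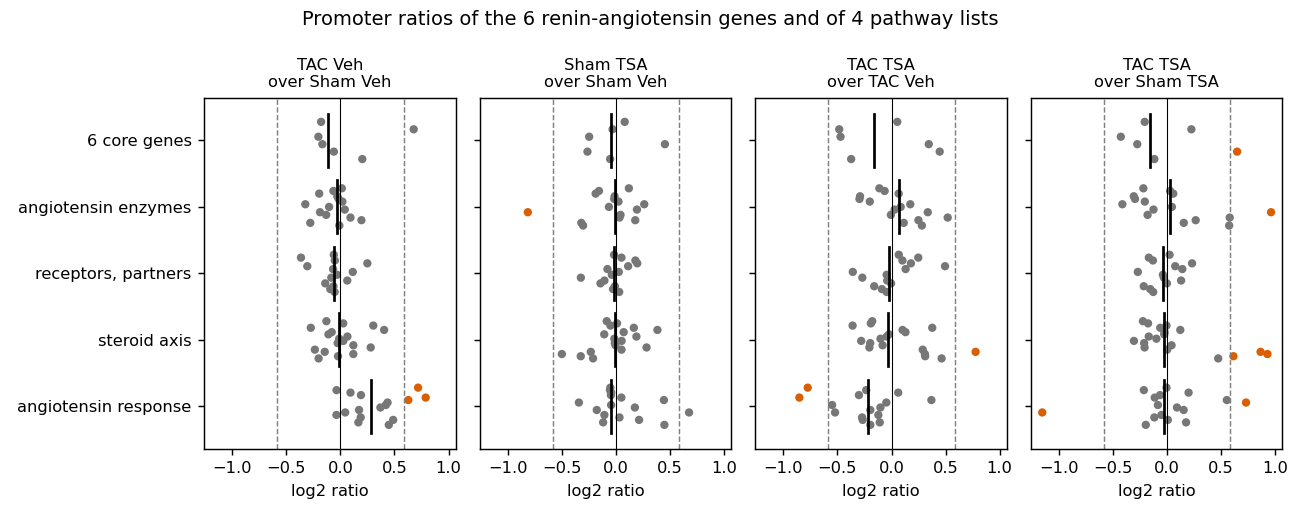
Log2 ratio of scaled promoter counts (horizontal axes) for the 6 core genes and the 4 pathway lists in the 4 pairs of libraries; each point is a gene, black bars are medians, dashed lines mark 1.5-fold and orange points are apart. In TAC Veh over Sham Veh the angiotensin response list has a median of 0.28, while the medians of the other 3 lists lie between -0.06 and -0.02. All lists were chosen with earlier results of these data known.

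Marker promoters of the cell types of the ventricle differed between libraries as well. These lists too were chosen with earlier results of these data known. With TMM the 10 cardiomyocyte markers summed to 672, 770, 478 and 759 CPM, the same order of libraries as for Agtr1a. Relative to the receptor median of each library Agtr1a was lowest in TAC TSA (7.18 times), so its order depends on the scaling. Of the cardiomyocyte markers 5 of 10 were apart and lower in TAC Veh over Sham Veh and 8 of 10 higher in TAC TSA over TAC Veh, where 0.582% and 4.06% of all promoters were. With receptor-promoter scaling these counts were 8 and 2, beside 860 and 100 of all 22835 promoters. With loess scaling they were 4 and 9, beside 250 and 311. The 12 fibroblast markers summed to 376, 389, 431 and 382, the 10 smooth muscle and pericyte markers to 348, 348, 378 and 346, and 11 leukocyte markers to 246, 293, 308 and 236. These sums were all highest in TAC Veh, as was Ace with TMM. Relative to the receptor median Ace was highest in Sham Veh (26.1 times, beside 23.95 in TAC Veh). The 10 endothelial markers, the cell type known for Ace, summed to 946, 893, 821 and 868 and were lowest in TAC Veh. Adipocytes and hepatocytes are known sources of angiotensinogen. The 8 adipocyte markers summed to 250, 255, 222 and 265 and the 10 hepatocyte markers to 123, 129, 131 and 144, both highest in TAC TSA, as was Agt with TMM. Relative to the receptor median Agt was lowest in TAC TSA (7.41 times). The marker sums depend on the scaling too. In TAC TSA over Sham TSA the median ratio of the adipocyte markers was 0.25, but 0.0064 with loess and -0.34 with receptor-promoter scaling, and that of the hepatocyte markers 0.34, but 0.017 and -0.26. No marker of these lists was at 0 counts in any library. The silent receptor promoters had medians of 17 to 22 counts, and the lowest hepatocyte marker count was 18. A count above 0 therefore does not show that a cell type was present. The part of the markers in the differences of Agt, Ace and Agtr1a was not tested.

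The genes whose 4 values were most like those of each gene were taken by the Euclidean distance between log2 values centred on each gene's mean, over the 4 libraries, among genes that averaged 100 or more counts. For Agtr1a they were Dusp27 (distance 0.06), the sodium-calcium exchanger gene Slc8a1 (0.07) and Gm5547 (0.07). For Agt they were Mir6997 (0.04), Mir365-1 (0.04) and Smco3 (0.05). Within a distance of 0.2 lay 104 genes for Agtr1a and 145 for Agt, out of 15668. Ace was closest to Rsph3a, Sin3b and Foxp4 (0.02 each, 2900 genes within 0.2), and Nr3c2 to Stx5a, Gm15441 and Gstm1 (0.0045, 0.0048 and 0.012, with 6136 genes within 0.2). Agtr1b (Dhx58, Slc35a2 and Cep55) and Agtr2 (Zfyve28, Ngef and Pamr1) rest on 17 to 43 counts a library, so their distances carry much counting error. Between the 6 genes the smallest distance was that of Agtr1a and Nr3c2 (0.33) and the largest that of Agtr1a and Agtr2 (0.91). The start of Gm10649 lies 1709 bp from that of Nr3c2 on GRCm38.p6, so reads may be shared; it had 847, 966, 771 and 623 counts.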

How the data were processed

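The authors deposited raw read counts per RefSeq promoter, whole numbers that were not normalised, for 1 library per group. Per the submitters' processing notes, the build was mm9 and the tools included MACS 1.4.1 and BWA 0.5.9. What each tool was run for, how wide the window was, and how input and duplicate reads were handled is not given in the sources used here. Deposited region lists were not used, since no mm9 annotation was at hand to place them. All columns of per-sample values were used (0 left out).

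RefSeq IDs were matched to symbols of the GRCm38.p6 assembly (31115 of 31594; unmatched IDs held 1.11% of counts). Each gene took its ID with the highest mean count, and of 23631 genes the 22835 averaging 10 or more counts were kept. No 2 libraries were identical. Libraries were scaled by TMM, and levels are CPM of the scaled library. Ratios carry exact conditional (Clopper-Pearson) 95% intervals, and the interaction a Wald interval. Such intervals hold for the libraries compared, not for the conditions, since they know counting error alone, and PCR reads are not independent molecules. The additive fit used edgeR 4.0.16 (R 4.3.3), with DESeq2 1.42.0 and limma 3.58.1 as alternatives, at an adjusted p threshold of 0.05. Other alternatives were DESeq2 size factors, total count, loess and receptor-promoter scaling, no filter, and the RefSeq ID with the lowest mean count. Profiles used log2(scaled count + 2). Python 3.11.15 with statsmodels 0.14.6 was used for the rest. Of the procedures, the ratio rule and the additive fit were run on simulated counts with known changes. These counts had no interaction and no shift of background between libraries, and the outcome is not reported here.

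The 6 genes and all lists were chosen with earlier results of these data known. Named besides the 6 were pathway genes that were apart or called, the highest and lowest of each list in TAC Veh over Sham Veh and TAC TSA over TAC Veh, and the 3 genes nearest in profile. Ren1 and Sgk1 were added for their role, after their values were seen, and 1 gene that this rule names is not reported here. The marker Cd68 was not analysed here.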

Additional observations from a re-analysis of the deposited data

Results flagged for a closer look

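Agt and Ace had opposite signs in the comparisons that share a contrast. The share of all genes with opposite signs was not counted, so the signs alone do not set these 2 genes apart. The interaction of Agt was above that of 93.5% of all genes, and that of Ace above 11.1%. For Agt the TSA library was lower than vehicle in sham (log2 ratio -0.26) and higher after TAC (0.45), an interaction of 0.71. For Ace the TAC library was higher than sham with vehicle (0.20) and lower with TSA (-0.12), an interaction of -0.32. With 1 library per group the difference was not tested in either gene, and the intervals of -0.26 for Agt and -0.12 for Ace held 0. The interval of the Ace interaction held 0 with total-count scaling (-0.27), with loess scaling (-0.22, added after seeing the data) and for the promoter of NM_009598 (0.10), and that of Agt with receptor-promoter scaling (0.36). With receptor-promoter scaling the TAC library was the lower one for Ace with vehicle (-0.04) and with TSA (-0.71), so the signs were no longer opposite, and the interaction was -0.67.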

How the results depend on the processing

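Of 252 values of the 6 genes recomputed under other scalings, filters, tools or RefSeq IDs, 236 stayed within the interval of the value reported or on its side of the threshold and 16 moved, and none that was called changed sign. This count does not measure stability, since the additive fit gave no intervals and several settings were nearly alike. Agtr1b counted as unmoved in TAC TSA over Sham TSA although it became apart with loess scaling. With receptor-promoter scaling 979 promoters were apart in TAC Veh over Sham Veh (573 with TMM), 3359 in TAC TSA over TAC Veh (1005) and 11997 in TAC TSA over Sham TSA (1690), and with loess scaling 563 and 496 in the last pair of comparisons. Of the 6 genes, 2 were then apart in TAC TSA over TAC Veh with receptor-promoter scaling, and in TAC TSA over Sham TSA 4 with that scaling and 2 with loess, where TMM gave 0 and 1. The additive fit called 8 genes for surgery and 49 for the drug. DESeq2 called 0 for surgery (47 at an unadjusted p under 0.05) and 0 for the drug (61), and edgeR with receptor-promoter scaling called 21 for surgery and 0 for the drug (660). Beyond the construction of each scaling the cause was not tested. Agtr1b and Agtr2, with 17 to 43 counts, are limited by depth. No paired analysis was possible because each group has 1 library, and for the same reason leaving out a library left no residual degree of freedom.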
